A study of Mus musculus with 25 samples.

Results

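The adult hemoglobin genes Hbb-bs, Hbb-bt, Hba-a1 and Hba-a2 were described in 25 Drop-seq libraries of mouse testis cells, as 4 of the 29244 gene symbols that the libraries counted. They were selected on their measured levels, which had been seen to differ between these same libraries, and taken by symbol, so the levels and fold changes of the 4 genes are given as a description and carry no test. Drop-seq counts transcripts by unique molecular identifiers (UMIs) in droplets that each carry a cell barcode, and the study used it to map the cell types of the testis in wild-type and infertile mice. A library is 1 preparation, and levels are given as UMIs scaled to a library of 1000000 UMIs (CPM).

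Of the 25 libraries, 4 held cells sorted by flow cytometry. The spermatogonia were sorted by GFP from pooled testes of 7 day old mice, by the labels C57BL/6 with Pouf51-EGFP, and were dissociated with enzymes. The study's methods give these mice a B6 and CBA background and spell the transgene Pou5f1-EGFP. The primary spermatocytes, secondary spermatocytes and spermatids were sorted by Hoechst staining from C57BL/6 mice of 2 months and 21 days after mechanical dissociation. The other 21 libraries were whole testis. WT1 and WT2 were C57BL/6 mice of 3 and 4 months, dissociated with enzymes in a protocol that lets tubules settle and discards the supernatant. WT3 to WT11 were 9 mechanically dissociated C57BL/6 libraries from mice of 3 to 9 months. The mutants, all dissociated mechanically, were 6 Mlh3-/- libraries on B6;129 from mice of 2 to 8 months, 2 Cul4a-/- libraries on B6;129 from mice of 1 month, and 2 libraries of the CNP eGFP BAC TRAP line on C57BL/6 from mice of 2 months, a transgenic line whose infertility has no known cause. The study's sample list exchanges the ages of the last pair of groups. The study's methods name the Mlh3 line B6.129, unlike the labels. The control mice carried neither the mutations nor the 129 background of the knockouts, so genotype and strain cannot be told apart. WT1 to WT11 were separate animals by the study's account; the same was not given for the mutant libraries in the sources used here. The Mlh3-/- libraries 2 and 3 have the same age in the labels, and libraries 4 to 6 ages 1 day apart, so they may share an animal or a date of preparation.

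Hemoglobin carries oxygen as a tetramer of alpha and beta chains, each around a heme group. In the adult mouse the beta chains come from Hbb-bs and Hbb-bt and the alpha chains from Hba-a1 and Hba-a2, and the transcripts fill maturing red cells and persist in reticulocytes after the nucleus has gone. The testis carries blood vessels between the tubules, so a dissociated testis can bring in red cells or their free RNA. Erythroid promoters commonly hold a TATA box, a CCAAT box, a CACCC box bound by Klf1 and a GATA site bound by Gata1.

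The letters before the starts are shown because the genes share both their promoter elements and, in these libraries, their pattern over samples. By the Ensembl annotation of GRCm38, Hbb-bt lies at chr7:103812524-103813996 and Hbb-bs at chr7:103826534-103828096, both on the minus strand and 12537 bases apart. Hba-a1 lies at chr11:32283511-32284465 and Hba-a2 at chr11:32296489-32297298, both on the plus strand and 12023 bases apart. The 250 bases before the RefSeq start (GRCm38.p6) are given 5′ to 3′ for Hbb-bs (chr7:103827929-103828178, minus), Hbb-bt (chr7:103813924-103814173, minus) and Hba-a1 (chr11:32283422-32283671, plus). RefSeq starts can lie inside the Ensembl limits, so that a window overlaps the gene as given for Hbb-bs, Hbb-bt and Hba-a1. Capitals mark matches on either strand to the TATA letters ATATAA, to the CCAAT box, to the CACCC box and to the GATA letters GATAAG, all chosen after the promoters of the members had been seen.
Hbb-bs: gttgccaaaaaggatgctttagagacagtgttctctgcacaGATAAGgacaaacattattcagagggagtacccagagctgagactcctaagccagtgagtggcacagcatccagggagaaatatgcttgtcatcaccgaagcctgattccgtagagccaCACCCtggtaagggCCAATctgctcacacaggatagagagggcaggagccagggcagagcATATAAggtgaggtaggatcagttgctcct
Hbb-bt: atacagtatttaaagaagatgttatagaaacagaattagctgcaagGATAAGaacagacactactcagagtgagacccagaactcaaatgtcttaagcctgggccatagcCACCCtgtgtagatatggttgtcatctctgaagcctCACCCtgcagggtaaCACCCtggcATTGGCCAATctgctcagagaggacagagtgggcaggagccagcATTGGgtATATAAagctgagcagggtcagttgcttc
Hba-a1: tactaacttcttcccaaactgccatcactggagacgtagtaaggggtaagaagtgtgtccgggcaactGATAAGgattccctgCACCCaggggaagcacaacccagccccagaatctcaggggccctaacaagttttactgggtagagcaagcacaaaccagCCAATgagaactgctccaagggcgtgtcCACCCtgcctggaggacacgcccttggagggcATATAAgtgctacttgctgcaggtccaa
The windows of Hba-a1 and Hba-a2 held the same letters with a shift of 3 bases (297 of 297 bases alike when 50 bases after the start are included), so that of Hba-a2 is not repeated. The TATA letters lay 28 to 31 bases before the start in all 4 genes, and the CCAAT letters on the coding strand 75 to 91 bases before it. CACCC occurred 1 time in Hbb-bs, 3 times in Hbb-bt and 2 times in Hba-a1, and GATAAG lay 182 to 209 bases upstream. In Hbb-bt, CCAAT also occurred on the opposite strand, 36 and 80 bases upstream, and the farther match touches the one on the coding strand. Among 32851 RefSeq promoter windows of the same 250 bases, 9.10% held ATATAA, 33.9% CCAAT, 52.0% CACCC, 6.55% GATAAG, and 46 (0.14%) held all 4.

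The copies of each chain are alike in their transcripts too, which bears on how 3′ counts divide between them. Of the stretches of 50 bases in the last 300 bases of Hba-a1, 80.1% occurred in Hba-a2, against 36.7% of those of Hbb-bs in Hbb-bt. Counts of a single alpha copy are therefore uncertain wherever they are given, and the alpha copies are summed where the make-up is described. Whether reads that match both copies were kept in the counts was not tested, so the summed share of alpha against beta is uncertain too. Mice of the 129 background can carry another beta-globin haplotype, with the genes Hbb-b1 and Hbb-b2, and neither symbol had a row in these tables.

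The libraries held 48642 barcodes and 65063387 UMIs, from 107117 to 9745302 UMIs per library and medians of 179.5 to 2534.5 UMIs per barcode. Markers of elongating spermatids summed to 26094 to 49510 CPM in the 9 mechanical wild-type libraries and to 2.13 to 13.3 CPM in the 6 Mlh3-/- libraries. Mlh3 itself was at 26.2 to 86.5 CPM in the Mlh3-/- libraries against 38.8 to 72.9 CPM in the mechanical wild type, and Cul4a at 49.0 to 54.5 CPM in the Cul4a-/- libraries against 23.3 to 45.7 CPM. Counts at 3′ ends do not check a deletion that lies elsewhere in a gene. Of 48081 distinct barcode sequences, 430 occurred in more than 1 library, at most 27 in any pair of libraries.

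The 4 hemoglobins held 4837 UMIs in all, or 74.3 CPM over these libraries together, and 20 of the 25 libraries had at least 1. Hbb-bs, an adult beta-globin gene, made up 62.0% of them (2999 UMIs, 20 libraries). Hba-a1 held 680 UMIs (14.1%), Hbb-bt, its neighbour in the beta cluster, 615 (12.7%) and Hba-a2 543 (11.2%), each in 17 libraries. All 4 genes were counted in 16 libraries. The UMIs were unevenly divided over libraries, with 3764 of them (77.8%) in the Mlh3-/- libraries 5 and 6.

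The libraries made from sorted cells or with enzymes held 2 hemoglobin UMIs in all. The sorted spermatogonia held 1 UMI of Hbb-bs and 1 of Hba-a2, both in the same barcode, or 1.71 CPM (95% exact Poisson interval 0.207 to 6.18). The sorted primary spermatocytes, secondary spermatocytes and spermatids held 0 UMIs. A floor of 3 counts is 28.0, 11.4 and 12.6 CPM in them, and the 95% exact Poisson upper bounds were 34.4, 14.1 and 15.6 CPM. All of these lie within the range of the mechanical wild type, so that a lower level was not detectable in these libraries. WT1 and WT2 also held 0 UMIs, with limits of 8.40 and 2.68 CPM at that floor and upper bounds of 10.3 and 3.30 CPM. Intervals and limits here cover counting error only. Each mechanical wild-type library other than WT3 was above the limit of WT2, whereas WT4 to WT11 ranged across that of WT1. The enzymatic libraries came from 2 mice only, so that the level by dissociation method cannot be told apart from the mice.

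The mechanical wild-type libraries ranged from 0.776 CPM in WT3 to 88.2 CPM in WT10, with a median of 14.4 CPM and a mean of 23.1 ± 27.2 (SD, n = 9). WT8 held 7.46 CPM, WT11 8.10, WT6 11.3, WT4 14.4, WT7 16.1, WT5 18.0 and WT9 43.5 CPM. WT9 and WT10 stood above the rest, and the other 7 did not pass 18.0 CPM. In the Mlh3-/- libraries the sum was 34.9, 28.8, 44.2, 35.2, 607 and 295 CPM for libraries 1 to 6, a mean of 174 ± 236 CPM (SD, n = 6) and a median of 39.7. Libraries 5 and 6 stood far above the others, and the lowest Mlh3-/- library was above 7 of the 9 mechanical wild-type ones, while WT9 and WT10 lay within the Mlh3-/- range. The Cul4a-/- libraries held 11.1 and 16.5 CPM (13.8 ± 3.80, SD, n = 2) and the CNP libraries 2.58 and 18.96 CPM (10.8 ± 11.6, SD, n = 2), all 4 within the range of the mechanical wild type. In order of their medians, the groups ran from the enzymatic wild type over CNP, Cul4a-/- and mechanical wild type to Mlh3-/-, and neighbours among CNP, Cul4a-/- and mechanical wild type did not differ beyond their spread. A library sum cannot tell fewer cells of a kind from less RNA in each.

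**Figure D1:**
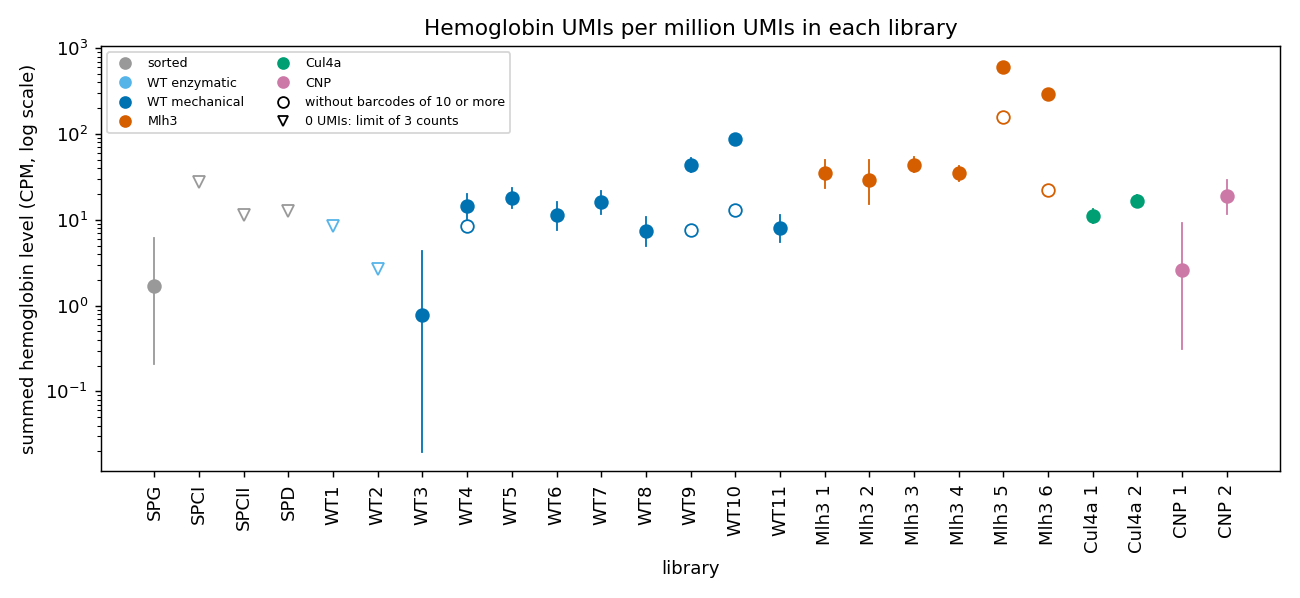
Summed level of the 4 hemoglobins in each library (CPM, log scale), filled points for all barcodes with 95% exact Poisson intervals, open points without barcodes of 10 or more hemoglobin UMIs, and triangles for the limit of 3 counts in libraries with 0 UMIs. The Mlh3-/- libraries 5 and 6 reach 607 and 295 CPM, and leaving out a few barcodes lowers library 6 to 22.4 CPM and library 5 to 158 CPM.

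The single genes varied with the sum, with departures such as 1 UMI of Hbb-bt in WT9, 1 of Hba-a1 in WT4 and 0 of Hba-a2 in WT6. Hbb-bs, the most abundant, was at 0.776 to 59.3 CPM in the mechanical wild type and at 21.7 to 341 CPM in Mlh3-/-. Hbb-bt reached 12.2 CPM in WT10 but 0.362 CPM in WT9, and 75.3 and 45.0 CPM in the Mlh3-/- libraries 5 and 6. Hba-a1 was at 106 CPM and Hba-a2 at 84.3 CPM in the Mlh3-/- library 5. Over the 21 whole-testis libraries, Pearson's r between pairs of the 4 genes on log2(CPM + 1) lay between 0.864 and 0.933, where the points share library depth and, for the copies, sequence. All 4 genes passed the minimum of 5 counts. In the fit across all genes, the log2 change of Mlh3-/- against the mechanical wild type was 2.13 for Hbb-bs, 2.88 for Hbb-bt, 2.55 for Hba-a1 and 2.82 for Hba-a2. Without the Mlh3-/- library 5 these fell to 1.34, 2.09, 1.34 and 1.73, without WT10 they were 2.69, 3.90, 2.93 and 3.24, and without barcodes of 10 or more hemoglobin UMIs they were 1.55, 1.47, 1.89 and 2.43. For Cul4a-/- the values were -0.65, -1.06, -0.84 and -1.78, but without those barcodes, which in this contrast were all in the wild type, 0.48, -0.19, 0.26 and -0.42. Without WT10 the Cul4a-/- value of Hbb-bs was -0.08 and that of Hbb-bt -0.04. For CNP they were -1.28, 0.14, -1.66 and -2.09, with all 4 genes resting on 22 UMIs in 2 libraries. Without barcodes of 10 or more they were -0.16, 1.00, -0.57 and -0.74, without CNP library 1 -0.66, 0.97, -0.86 and -1.32, and without CNP library 2 -2.81, -6.06, -6.59 and -6.08, so that no CNP value was stable. The 3 contrasts share the wild-type libraries, and the median change over all genes was 0, 0.16 and -0.23 in Mlh3-/-, Cul4a-/- and CNP.

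The hemoglobin UMIs lay mainly in a very few barcodes with many and in a large number of barcodes with 1, with some barcodes in between. A hemoglobin UMI was found in 1240 of the 48642 barcodes (2.55%), and 1108 of these held exactly 1. Only 47 barcodes held 3 or more. Counts in between were most frequent in the Mlh3-/- library 5. There 40 barcodes held 2 UMIs, 14 held 3 or 4 and 6 held 5 to 9, beside 326 with 1. At the other end, 12 barcodes held 10 or more and together had 3410 UMIs, 70.5% of all hemoglobin UMIs of the 25 libraries. No barcode held between 9 and 14, so the bound of 10 fell into a gap. The 12 barcodes belonged to 5 libraries, WT4, WT9, WT10 and the Mlh3-/- libraries 5 and 6, and none had a neighbour 1 base away in its library or recurred in another library.

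**Figure D2:**
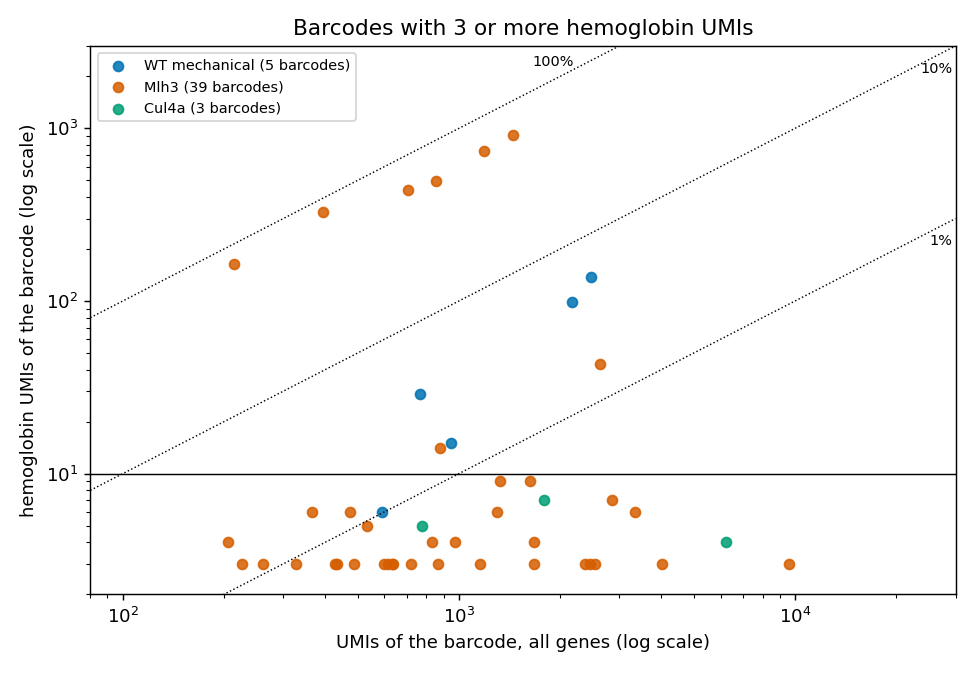
Barcodes with 3 or more hemoglobin UMIs, with all UMIs of the barcode on the horizontal and its hemoglobin UMIs on the vertical axis (both log scales), coloured by group. The 6 uppermost Mlh3-/- points, with 164 to 911 hemoglobin UMIs, lie well above the 35 barcodes of 3 to 9.

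In 6 of the 12, all from the Mlh3-/- libraries 5 and 6, hemoglobin made up most of the barcode. In library 5 these held 911 of 1445 UMIs (63.0%), 326 of 395 (82.5%) and 164 of 214 (76.6%). In library 6 they held 739 of 1188 (62.2%), 492 of 853 (57.7%) and 441 of 704 (62.6%). The 6 barcodes, called hemoglobin-rich here for 10 or more UMIs and at least 10% of the barcode, carried 3073 UMIs or 63.5% of the hemoglobin of the 25 libraries. The next share under that bound was 5.56%. The other 6 barcodes were deeper in other genes. The barcode of WT9 held 99 hemoglobin UMIs of 2173 (4.56%), those of WT10 137 of 2462 (5.56%) and 29 of 765 (3.79%), that of WT4 15 of 944 (1.59%), and the last pair of library 6 held 43 of 2620 (1.64%) and 14 of 878 (1.59%).

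The other transcripts of the hemoglobin-rich barcodes were sought among genes of the red cell. Besides the 3073 hemoglobin UMIs the 6 barcodes held 1726 UMIs, compared with 9453545 in the other barcodes of the same libraries; pooling these 6 was decided after their values were seen. Alas2, the erythroid first enzyme of heme synthesis, had 18 UMIs in 5 of the 6 barcodes, or 10429 CPM of the non-hemoglobin UMIs (95% exact Poisson interval 6181 to 16482), against 0.740 CPM in the others. Thus 18 of the 25 Alas2 UMIs of the 2 libraries sat in these 6 barcodes. Gpx1, an antioxidant enzyme abundant in red cells, had 19 UMIs in 5 barcodes (11008 CPM against 54.4 CPM). Bpgm, which makes the 2,3-bisphosphoglycerate that loosens oxygen from hemoglobin, had 16 in 4 barcodes (9270 CPM against 77.0 CPM). Ube2l6 had 6 UMIs in 4 barcodes, Epb4.1, a protein of the red cell membrane skeleton, 7 in 4, Fech, which inserts iron into heme, 6 in 3, and the interferon-induced Rsad2 8 in 3.

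Counted by list, erythroid heme and chaperone genes held 21 UMIs in the 6 barcodes where 0.0705 would fall to them at the level of the other barcodes, and red cell enzymes held 57 where 1.51 would. Of the red cell membrane list, Slc4a1, the anion exchanger, had 2 UMIs. Erythroid regulators, among them Gata1 and Klf1, had 0 UMIs, at an expected 0.0236. Markers of platelets, neutrophils, B cells, macrophages, endothelium and spermatids were also at 0 UMIs, and for these lists no more than 1.30 were expected at the level of the other barcodes, so that a level like that of the other barcodes was not detectable at this depth. Markers of spermatocytes, mostly Ldhc, had 9 UMIs where 16.0 would fall, those of Leydig cells 4 (2.90) and those of Sertoli cells 4 (1.97). The mitochondrial mt-Rnr2 had 243 UMIs where 94.2 would fall.

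The 6 deeper barcodes held smaller shares of these genes. They had 736 to 2577 non-hemoglobin UMIs beside 14 to 137 hemoglobin UMIs, so a smaller share does not show whether red cell RNA came with their hemoglobin. Erythroid and heme genes made up 2.77% to 9.13% of the non-hemoglobin UMIs in the 6 hemoglobin-rich barcodes and 0% to 0.347% in the other 6, where the whole libraries held 0.105% to 0.173%. The deeper barcodes of library 6 had 0.310% (8 UMIs) and 0.347% (3 UMIs) against 0.107% in that library. Markers of spermatocytes and spermatids made up 0% to 1.14% in the former. They made up 20.2% in the barcode of WT9, where Prm1 and Prm2, the protamines of elongating spermatids, had 143 and 104 UMIs. In the other 5 the share was 0.854% to 4.76%. The germ marker shares also differed between whole libraries, at 3.69%, 4.52% and 4.68% in WT4, WT9 and WT10. They were 0.878% and 0.955% over the Mlh3-/- libraries 5 and 6. The barcodes followed their library only in part. That of WT4 had 3.55% and those of WT10 1.98% and 4.76%, while that of WT9 stood well above its library. In the Mlh3-/- library 5 the rich barcodes had 0% to 0.375%. In library 6 the rich barcodes had 0.223% to 1.14% and the deeper barcodes 0.854% and 1.51%. The barcode of WT9 thus held both hemoglobins and the transcripts of a late germ cell; whether 2 cells shared its droplet was not tested.

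**Figure D3:**
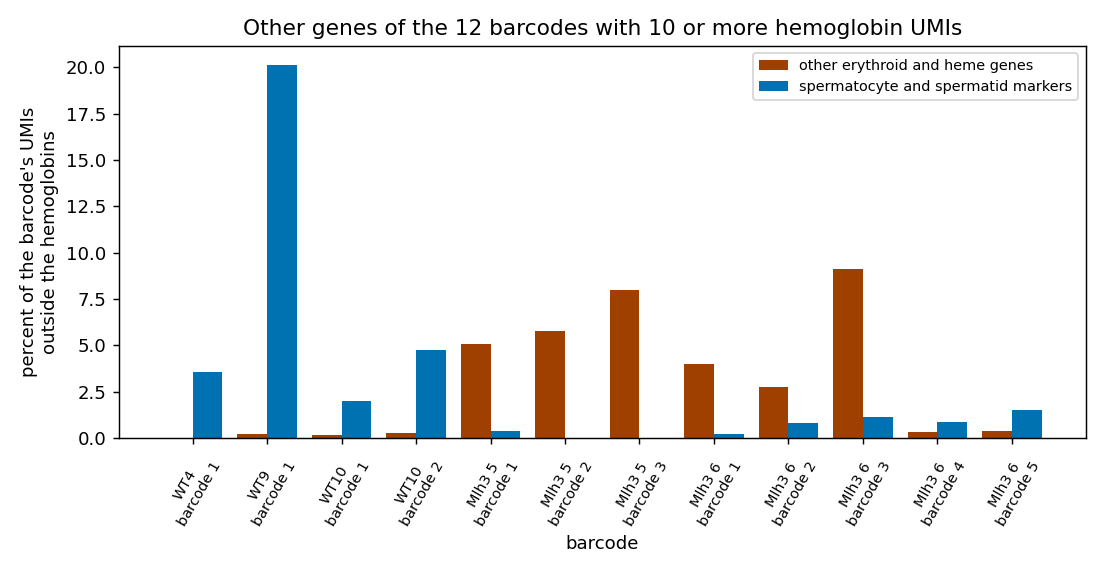
Share of the UMIs outside the hemoglobins (percent) that fell to the other erythroid and heme genes and to the spermatocyte and spermatid markers in each of the 12 barcodes with 10 or more hemoglobin UMIs. The 6 hemoglobin-rich barcodes of Mlh3-/- show 2.77% to 9.13% erythroid UMIs, and the barcode of WT9 shows 20.2% germ cell markers.

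These few barcodes held between 40.5% and 92.4% of the hemoglobin UMIs of their libraries. Without barcodes of 10 or more, WT4 went from 14.4 to 8.54 CPM, WT9 from 43.5 to 7.61, WT10 from 88.2 to 13.1, the Mlh3-/- library 6 from 295 to 22.4 and library 5 from 607 to 158 CPM (95% exact Poisson interval 144 to 172). The mechanical wild-type libraries then ranged from 0.776 to 18.0 CPM (10.1 ± 5.21, SD, n = 9) and the Mlh3-/- libraries from 22.4 to 158 CPM (53.9 ± 51.4, SD, n = 6, median 35.1), and these ranges did not overlap. The cut was chosen after seeing the data and acts on UMIs of the selected genes, so this gap is a description and no test. It took out the barcodes that had placed WT9 and WT10 within the Mlh3-/- range. In libraries read on the HiSeq the ranges were 7.46 to 18.0 CPM (WT4 to WT11) and 22.4 to 158 CPM (Mlh3-/- libraries 3 to 6), and on the MiSeq 0.776 CPM (WT3) against 28.8 and 34.9 CPM (Mlh3-/- libraries 1 and 2). Of the genes in the fit over all barcodes, 28.9% were called higher and 32.7% lower in Mlh3-/-, so that a difference between these groups is common. The share of genes whose ranges do not overlap was not counted.

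The remaining 1427 UMIs were mostly single molecules in a barcode. They fell into 1228 barcodes, 90.2% of which held 1, so that 1108 of the 1427 UMIs were alone in their barcode. A formula gave the number of barcodes expected with a UMI if the UMIs of a library fell on its barcodes in proportion to their depth. Over all barcodes, WT9 had 22 with a UMI where 115 would be expected, WT10 31 of 181, the Mlh3-/- library 5 389 of 924 and library 6 135 of 822. Outside barcodes of 10 or more, the ratio of observed to expected was 0.896 to 1.20 over the 16 libraries with at least 20 UMIs, with a median of 1.01. Once barcodes of 10 or more are left out, few UMIs over many barcodes give a ratio near 1 whether or not the UMIs follow depth, so in most libraries it does not tell these apart. WT5 had 55 with a UMI where 54.6 were expected, the Cul4a-/- libraries 99 of 102 and 139 of 148, and the Mlh3-/- library 6 130 of 119. The Mlh3-/- library 5 was the highest of these with 386 of 323, yet under the 465 that an equal chance for every barcode would give. In WT9 and WT10, 1 barcode held at least 50% of the library's hemoglobin UMIs, and in the Mlh3-/- libraries 5 and 6, 2 barcodes did. It took 27 barcodes in WT5 and 59 in the Cul4a-/- library 2.

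Within a library, however, the UMIs outside barcodes of 10 or more did not follow depth throughout. When the barcodes of each library were split by depth into 3 bins of equal number, with barcodes of 10 or more left out, the hemoglobin share of all UMIs in the mechanical wild type was 27.7 CPM in the shallowest bin, 19.7 in the middle and 4.20 CPM in the deepest. Counted per 1000 barcodes, the same UMIs came to 11.6, 11.2 and 8.15. The mean depth of these bins was 418, 570 and 1937 UMIs per barcode. In Mlh3-/- the bins had 111, 120 and 37.0 CPM, or 43.1, 70.7 and 120 UMIs per 1000 barcodes, with 492 of the 872 UMIs from library 5. Per 1000 barcodes, library 5 alone had 49.3, 101 and 197, and library 6 31.1, 42.8 and 36.6. The other Mlh3-/- libraries were, like library 5, highest per barcode in the deepest bin. In Cul4a-/- they had 36.9, 22.0 and 9.80 CPM, or 29.8, 34.5 and 76.4 per 1000. In CNP they had 27.2, 17.5 and 7.31 CPM, or 4.79, 4.11 and 6.17 per 1000. The CPM fell from bin to bin in 6 of the 9 mechanical wild-type libraries, 4 of the 6 Mlh3-/- libraries, both Cul4a-/- libraries and 1 of the 2 CNP libraries. From the shallowest to the deepest bin, depth per barcode rose more steeply than hemoglobin UMIs per barcode in all 4 groups, and in the mechanical wild type the number per barcode did not rise.

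**Figure D4:**
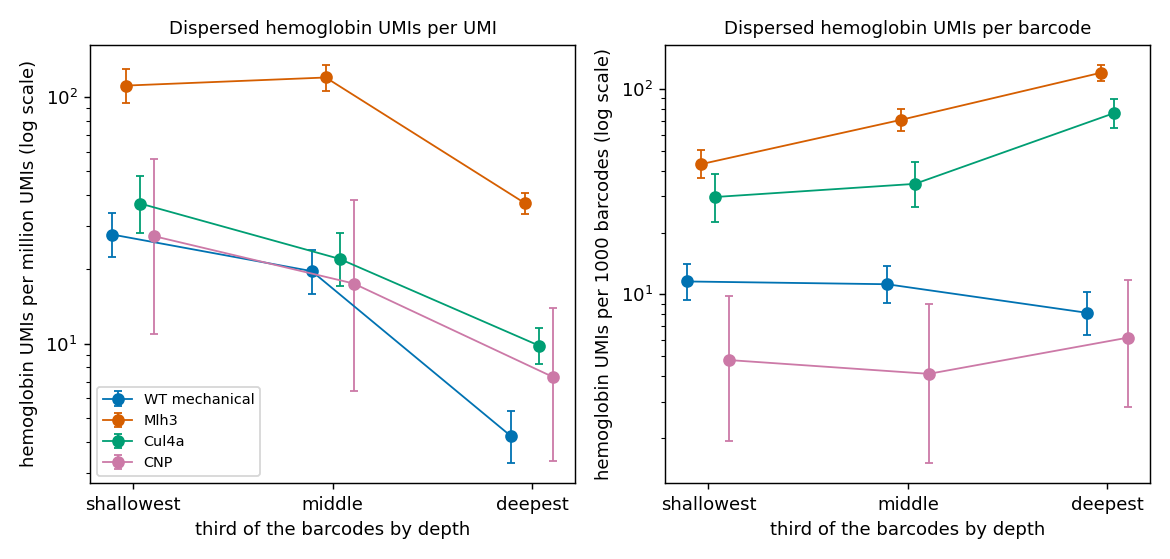
Hemoglobin UMIs outside barcodes of 10 or more in 3 bins of the barcodes by depth, as CPM and per 1000 barcodes (log scales), summed over the libraries of each mechanical group with 95% exact Poisson intervals. The mechanical wild type goes from 27.7 to 4.20 CPM, and Mlh3-/- from 43.1 to 120 UMIs per 1000 barcodes.

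Since barcodes of different libraries differ in depth, the share with a hemoglobin UMI was also computed at 200 UMIs per barcode. It was 0.0118% to 0.572% in the mechanical wild type, with a median of 0.327% over 1099 to 2985 barcodes of a library, and 0.757% to 5.66% in Mlh3-/- with a median of 1.18%. The Mlh3-/- library 5 was highest with 5.66% of 2731 barcodes, against 11.7% before thinning, and library 6 had 1.62% of 3820 barcodes (3.53% before thinning). The Cul4a-/- libraries had 0.339% and 0.588% (3.58% and 4.68% before thinning) and the CNP libraries 0.0796% and 0.401%. At equal depth the Cul4a-/- library 1 thus lay within the range of the mechanical wild type and library 2 just above it, while all 6 Mlh3-/- libraries lay above it. Of all genes in the fit, 28.9% were called higher and 32.7% lower in Mlh3-/-, so differences between these groups are common. Thinning evens depth and not cell composition.

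Barcodes with markers of germ cells also held hemoglobin UMIs. A few UMIs of a marker list need not mean a cell of that kind. In the Mlh3-/- library 5 the spermatocyte list summed to 8759 CPM over all barcodes, with Ldhc at 5674 CPM. Barcodes with at least 5 UMIs of a marker list passed in part for both germ and somatic lists (among the Mlh3-/- libraries, 722 of 799 barcodes in library 3 and 92 of 4258 in library 5), so they were divided into those with germ markers only (spermatocyte or elongating spermatid), those with somatic markers only (Leydig or Sertoli) and those with both, a division made after seeing the data. In the Mlh3-/- library 5, a hemoglobin UMI was found in 10.6% of 853 germ-only barcodes (95% Clopper-Pearson interval 8.57 to 12.8, median depth 692 UMIs) and in 9.89% of 182 somatic-only barcodes (5.97 to 15.2, median 659.5). In the 92 barcodes with both it was 28.3% (19.4 to 38.6, median 1141). In library 6 the shares were 3.70% of 1270 germ-only (2.73 to 4.89, median 754.5) and 2.85% of 281 somatic-only barcodes (1.24 to 5.53, median 806), and 0.667% of the 150 with both (0.0169 to 3.66, median 1936.5). In library 4 they were 5.57% of 574 (3.84 to 7.78) and 5.45% of 110 (2.03 to 11.5), and 13.5% of the 89 with both (7.17 to 22.4). Libraries 1 to 3 had few barcodes of a single kind, with a hemoglobin UMI in 2 of 77, 6 of 148 and 0 of 19 germ-only and in 0 of 22, 1 of 35 and 3 of 52 somatic-only barcodes. The intervals of germ-only and somatic-only barcodes overlapped in all 6 libraries, so that a difference between them was not detectable at this depth. These intervals cover the counting of barcodes within 1 library. Barcodes with fewer than 5 UMIs of each of these lists fell outside the division. In library 5, the germ-only, somatic-only and mixed barcodes with a hemoglobin UMI numbered 90, 18 and 26, of 386 outside barcodes of 10 or more. In library 6 they numbered 47, 8 and 1, of 130. As marker UMIs need not identify a cell, the division does not show which cells carried the hemoglobin UMIs.

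The make-up of the hemoglobin UMIs varied between barcodes and libraries. The alpha chains, Hba-a1 and Hba-a2 together, made up 30.4% (95% Clopper-Pearson interval 27.4 to 33.5), 35.9% and 29.3% of the 3 rich barcodes of the Mlh3-/- library 5, and 22.5% (19.5 to 25.6), 22.2% and 15.6% of those of library 6. In library 5 the barcodes of 10 or more had 31.5% (29.1 to 34.1) and the rest 30.9% (26.8 to 35.2). In library 6 the values were 20.6% (18.8 to 22.6) and 26.1% (19.1 to 34.1). These intervals cover the counting of UMIs in a few barcodes of 2 libraries, and barcodes of 1 library could also differ by them, since the 15.6% in library 6 had an interval of 12.4 to 19.4. Outside barcodes of 10 or more, the alpha share was 21.0% (16.2 to 26.4) over the mechanical wild type, 17.1% (12.8 to 22.1) over Cul4a-/- and 28.7% (25.7 to 31.8) over Mlh3-/-, where library 5 gave 492 of the 872 UMIs.

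The balance of the beta genes also varied. Hbb-bt made up 18.1% and 19.3% of the beta UMIs in the Mlh3-/- libraries 5 and 6, 17.1% in WT10, 27.3% in WT11 (10.7 to 50.2), 29.4% in CNP library 2 (10.3 to 55.96), 11.96% over the mechanical wild type and 8.97% over Cul4a-/-. In WT9 it was 1 of 82 UMIs (1.22%), and all but 21 hemoglobin UMIs of that library came from 1 barcode. Among the rich barcodes of library 5, Hbb-bt had 15.8% of the hemoglobin UMIs in the first and 6.44% in the second, so that barcodes of 1 library differed as well. Because the copies share sequence, how reads divide between them was not tested.

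**Figure D5:**
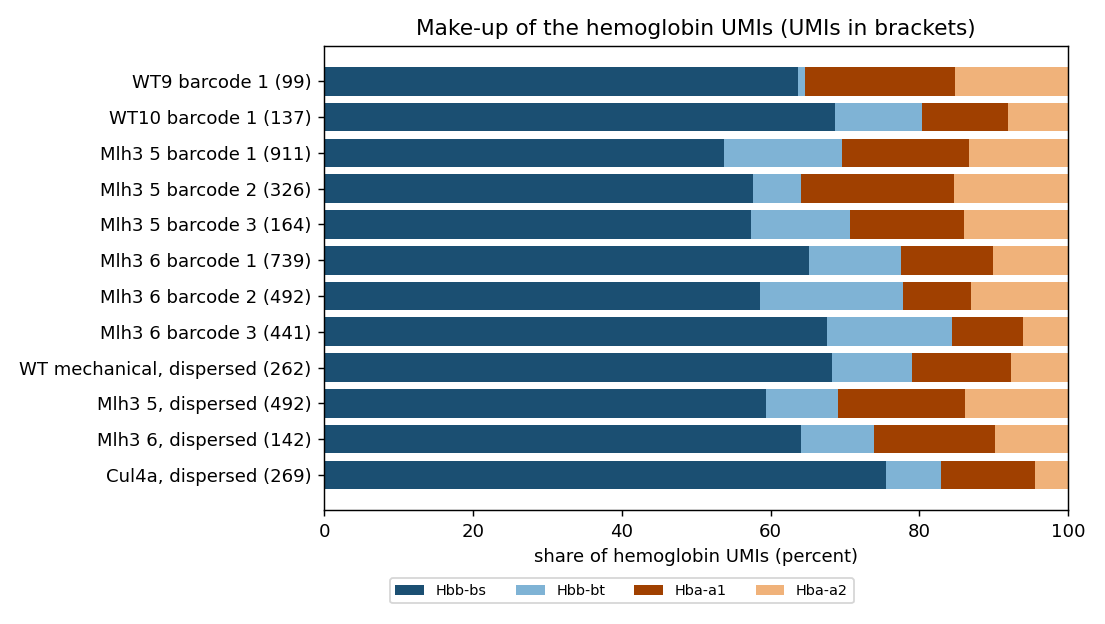
Share of Hbb-bs, Hbb-bt, Hba-a1 and Hba-a2 among the hemoglobin UMIs (percent), with the number of UMIs in brackets. The upper bars are single barcodes with 99 to 911 hemoglobin UMIs. The lower bars are the UMIs outside barcodes of 10 or more in the mechanical wild type, the Mlh3-/- libraries 5 and 6, and Cul4a-/-. Hbb-bs leads throughout, and the alpha share is 29.3% to 35.9% in the single barcodes of the Mlh3-/- library 5 against 15.6% to 22.5% in those of library 6.

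Other features of the libraries differed between Mlh3-/- and the mechanical wild type. Mitochondrial transcripts made up 4.55% to 13.4% of UMIs in Mlh3-/- against 0.517% to 1.73% in the mechanical wild type, 0.720% to 0.830% in Cul4a-/- and 1.13% to 1.58% in CNP. Leydig markers summed to 830 to 5417 CPM in Mlh3-/- and 41.2 to 244 CPM in the mechanical wild type, Sertoli markers to 930 to 4844 and 195 to 381 CPM, and macrophage markers to 47.2 to 368 and 13.1 to 23.2 CPM. Platelet markers, of another blood cell, were at 10.9 to 70.0 CPM in Mlh3-/- against 2.35 to 8.06 CPM, but most of this was Pf4, while Gp1bb and Itga2b overlapped between the groups and Treml1, Gp6 and Clec1b were at or near 0 in both, and endothelial markers overlapped at 4.62 to 16.1 and 4.66 to 9.35 CPM. The neutrophil list was at 600 to 5636 CPM against 28.0 to 70.6 CPM, but nearly all of it was Lcn2, with the granule genes S100a9, Ltf, Elane and Ngp at or near 0. Within Mlh3-/-, library 1, at 34.9 CPM hemoglobin, had the highest Leydig and macrophage sums, and library 6, at 295 CPM, the lowest Sertoli, macrophage and platelet sums. WT10, the wild-type library with the most hemoglobin, had the lowest Leydig sum of its group. The part of each in the hemoglobin level was not tested.

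The other genes of red cells and of heme were then counted in the library sums, with the 4 hemoglobins left out, to see whether they moved with the hemoglobins. Of 59 genes of the list, 50 had a row and 46 entered the fit, and 17 were higher and 14 lower in Mlh3-/- by edgeR's quasi-likelihood test at a Benjamini-Hochberg adjusted p of 0.05. That is 37.0% and 30.4% of the list against 28.9% and 32.7% of all 23168 genes, with a median log2 change of 0.45 against 0, so that the list stood near the background. Heme synthesis, used by all cells, rose in 6 of 7 genes, among them Cpox, coproporphyrinogen oxidase (log2 change 2.94, adjusted p = 4.7e-07 by edgeR), and Ppox (2.91). Of the erythroid heme and chaperone genes, Tfrc, the transferrin receptor, rose (1.65), and the mitochondrial carriers Slc25a37 (-5.04) and Slc25a38 (-0.91) fell. Alas2, found in 5 of the 6 rich barcodes, was not called (-0.44, adjusted p = 0.30 by edgeR). Its UMIs numbered 4, 3, 17, 5, 10 and 15 in the Mlh3-/- libraries 1 to 6, with the most in library 3, which had no barcode of 10 or more hemoglobin UMIs. They numbered 1 to 14 in the mechanical wild type, where the barcodes of 10 or more held none.

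Red cell membrane genes were higher in 2 cases, Sptb and Rhd, and lower in 3, among them Ank1 (-3.26) and Cldn13 (-5.95). Of the 7 regulators tested, 14.3% rose and 42.9% fell. Gata1, the erythroid factor that Sertoli cells also make, rose (2.52), and Hemgn (-12.07), Nfe2 (-4.24) and Epor, the erythropoietin receptor (-1.25), fell. Of 13 red cell enzymes and late erythroid genes tested, 6 were higher (46.2%), among them Prdx2 (2.36), Cat, catalase (2.499), and Blvrb, biliverdin reductase B (3.34). Lower were 5 (38.5%), among them Car2, carbonic anhydrase (-9.79), and Bpgm (-2.14). Of the list members with UMIs in the rich barcodes, some fell in the library sums, among them Slc25a37, Bpgm and Car2, and others rose, among them Ube2l6 (4.01), Blvrb, Prdx2, Bnip3l (1.02) and Fech (0.88). The former were also counted in the sorted spermatids, which held 0 hemoglobin UMIs (22, 52 and 99 UMIs), and markers of elongating spermatids fell in Mlh3-/- as given above; the part of this in the falls was not tested. Of the globins of other tissues, Cygb rose (1.48) and Ngb fell (-2.12). The embryonic Hbb-y had 2 and 1 UMIs in the Cul4a-/- libraries and Hbb-bh1 1 UMI in the Mlh3-/- library 5.

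In Cul4a-/-, 2 of the 46 genes were higher and 0 lower, where 3.95% and 0.833% of all genes were called (916 and 193 genes, but 629 higher and 807 lower with DESeq2). These were Gypc, glycophorin C (2.58, adjusted p = 0.0016 by edgeR), and Cldn13 (1.18, adjusted p = 0.039 by edgeR). Neither was called without the Cul4a-/- library 1, and 1 of them was lost without library 2 or without any one of WT6 to WT9 and WT11. In CNP, Car2 was lower (-1.23, adjusted p = 0.036 by edgeR) and 0 genes were higher, where 0.117% and 0.859% of all genes were called higher and lower. The call of Car2 was lost without either CNP library, without the Cul4a-/- library 2, and without any one of WT5 to WT8 and WT11.

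The genes with a pattern over the 21 whole-testis libraries most like that of the hemoglobin sum were taken from 11193 genes with a mean of at least 5 CPM, by Pearson's r on log2(CPM + 1). They were Prok2 (r = 0.841), Gucd1 (0.839), Kat7 (0.837), Spef1 (0.831) and Dtl (0.83), and for Prok2 the value was 0.742 without the Mlh3-/- library 5 and WT2. All 5 were highest in an Mlh3-/- library, and the points share depth and cell composition. Between pairs of the hemoglobins themselves r was 0.864 to 0.933, which is another measure than r with their sum, so these values are not compared. No value without the Mlh3-/- library 5 and WT2 is given for these pairs.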

How the data were processed

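Testis cells of 25 libraries were profiled by Drop-seq. The authors ran the Drop-seq pipeline with STAR 2.5.3a on mm10 and deposited counts of UMIs per gene and cell barcode, without normalization. Here the counts of the 4 hemoglobins were summed per library and per barcode and divided by all UMIs. The members, gene lists and thresholds were chosen with earlier results of these data known. Genes named are the 4 members, those of the red cell list called in a contrast or high in level, the genes most alike in pattern, and genes leading the hemoglobin-rich barcodes. Sums over all barcodes of the 19 mechanical whole-testis libraries (450745 to 9745302 UMIs) were tested with edgeR 4.0.16 (R 4.3.3, TMM, 23168 genes of at least 5 counts, no covariate, two-sided), after the scripts had been tested on simulated data; DESeq2 1.42.0 was an alternative. P-values set a difference against the spread between libraries and treat each library as independent. Some Mlh3-/- libraries may share an animal or a date of preparation, which the p-values, calls and SDs do not take into account. Shares at 200 UMIs came from a formula, with shallower barcodes left out. Doublets were not called. Sequences are from RefSeq; 4 of 4 members matched. Whether sequencer (MiSeq or HiSeq) mattered was checked by leaving out MiSeq libraries. Tables and figures used Python 3.11.15 with scipy 1.17.1 and matplotlib 3.10.9. Values of some genes of the red cell list are not reported here.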

Additional observations from a re-analysis of the deposited data

Results flagged for a closer look

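In groups of 4 to 10 libraries, 28 gaps between the highest or lowest library and its neighbour were set against the group's range, and 7 were above Dixon's 95% critical value, which chance passes in about 5% of groups. The genes were selected on these levels and the measures share their UMIs, so this describes the gaps and is no test. In the mechanical wild type, WT10 lay past a gap of that size in the summed level (88.2 CPM), in Hbb-bs (59.3 CPM) and in Hbb-bt (12.2 CPM). In Mlh3-/-, library 5 lay past a gap of that size in Hba-a1 (106 CPM), in Hba-a2 (84.3 CPM), in the summed level outside barcodes of 10 or more hemoglobin UMIs (158 CPM) and in the share of barcodes with a hemoglobin UMI at 200 UMIs (5.66%).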

How the results depend on the processing

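Counts of genes called in Cul4a-/- and CNP, with 2 libraries each, depended most on the settings. Genes called in Cul4a-/- numbered 1109 as reported, 219 with the replicate number as a block, 2025 in HiSeq libraries only and 284 to 1617 with a library left out. Red cell genes called there were 2, but 1 with DESeq2, 0 with the replicate block and 0 to 2 with a library left out. For CNP, 226 genes became 681 with DESeq2, 442 with edgeR's own filter, 457 in HiSeq libraries only and 40 to 459 with a library left out. The 1 red cell gene became 2 with edgeR's own filter and 0 without a filter, with the block, with the enzymatic libraries added or without barcodes of 10 or more hemoglobin UMIs (chosen after seeing the data), and 0 to 1 with a library left out. In Mlh3-/-, 14281 genes were 13746 to 14361 with a library left out and 9694 with the block, and the 31 red cell genes 28 to 33 and 21. The replicate numbers do not pair the samples, and the Cul4a-/- and CNP libraries share no number with the mechanical wild type, so that the block compares them through other groups: same-numbered libraries of different groups correlated at -0.098 to 0.050 in 10 pairs. Thinning to 400 UMIs gave a median of 0.525% of barcodes in the mechanical wild type (0.327% at 200), and 0.906% in Cul4a-/- (0.464% at 200, 0.235% at 100). With a bound of 5% of a barcode the hemoglobin-rich share was 66.4% in place of 63.5%. Of 104 values of the hemoglobins' log2 changes in Mlh3-/- under other settings, 103 moved by less than the spread between replicates and 0 changed sign; Hbb-bt became 4.6 with the block. The block turned the Cul4a-/- values of Hbb-bs, Hbb-bt, Hba-a1 and Hba-a2 to 2.80, 4.91, 4.19 and 2.43, and those of CNP to 2.12, 5.95, 3.31 and 2.13, but as this block pairs nothing it does not bear on their direction. Levels under about 3 UMIs of a library are not resolved.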
